A study of Homo sapiens with 8 samples.

Results

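Iron sensing, uptake and storage genes were examined in H1299 cells, a human non-small cell lung carcinoma line, after GA (gallic acid, an iron-binding phenolic acid of tea) or 5azaC (5-azacytidine, a cytidine analog that blocks DNA methyltransferases). The genes were chosen by symbol: FBXL5, IREB2, ACO1, TFRC, SLC11A2, SLC40A1, FTH1, FTL, NCOA4 and STEAP3. Of these 10 genes, 8 have a probe set under their name, each a single one, among the 17687 gene symbols and 21448 probe sets measured. FTH1 and IREB2 have none named here and are not analysed. RNA was hybridized to 8 Clariom S arrays, 2 each for cells treated with GA for 120 h, untreated controls for GA, cells treated with 5azaC for 120 h and untreated controls for 5azaC. The compounds were given at 10 μM by the study's results text and at 10 mM by the labels. The controls had no treatment and matched the treated cells in passage. No genotype was changed and no animal was used, and all groups are of 1 cell line in serum-containing medium. The labels call the replicates biological without saying what separated the cultures, so p-values measure the spread between these samples, which may be technical.

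Iron enters most cells as transferrin bound to the transferrin receptor (TFRC), is reduced in the endosome by STEAP3 and crosses into the cytosol through the divalent metal transporter SLC11A2. Ferritin, a shell of the heavy chain FTH1 and the light chain FTL, stores it, the cargo receptor NCOA4 delivers ferritin to the lysosome for release, and ferroportin (SLC40A1) exports it. The iron regulatory proteins, ACO1 and IREB2, bind RNA hairpins called iron-responsive elements when iron is scarce. Bound in the 3′ end of the TFRC transcript they protect it from decay, and bound at the 5′ end of ferritin and ferroportin transcripts they block translation. FBXL5, the iron-sensing subunit of a ubiquitin ligase, has IREB2 degraded when iron is plentiful. The arrays measured transcript levels and not translation.

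Sequences are from RefSeq on GRCh38.p14, where 9 of the 10 genes have a promoter entry. The 250 bases before the start site are shown for TFRC and FBXL5, which, like ACO1 (not shown), lay above their controls after both treatments. They are also shown for STEAP3, which lay below after both. They are at chr3:196082091-196082340, chr4:15655358-15655607 and chr2:119223584-119223833, the first and second on the minus strand and STEAP3 on the plus strand, with CpG, the dinucleotide that DNA methyltransferases methylate, in capitals.
TFRC: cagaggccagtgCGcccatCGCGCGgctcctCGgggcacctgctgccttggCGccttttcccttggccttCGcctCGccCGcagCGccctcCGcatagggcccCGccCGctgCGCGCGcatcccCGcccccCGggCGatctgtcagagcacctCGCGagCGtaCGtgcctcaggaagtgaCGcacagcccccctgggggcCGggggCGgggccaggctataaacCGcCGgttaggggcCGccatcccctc
FBXL5: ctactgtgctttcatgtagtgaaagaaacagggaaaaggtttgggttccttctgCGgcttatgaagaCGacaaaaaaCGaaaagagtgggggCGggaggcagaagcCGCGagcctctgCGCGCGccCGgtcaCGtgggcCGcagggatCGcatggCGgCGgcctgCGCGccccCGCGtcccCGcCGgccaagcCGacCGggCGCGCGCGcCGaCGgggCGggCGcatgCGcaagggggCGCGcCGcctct
STEAP3: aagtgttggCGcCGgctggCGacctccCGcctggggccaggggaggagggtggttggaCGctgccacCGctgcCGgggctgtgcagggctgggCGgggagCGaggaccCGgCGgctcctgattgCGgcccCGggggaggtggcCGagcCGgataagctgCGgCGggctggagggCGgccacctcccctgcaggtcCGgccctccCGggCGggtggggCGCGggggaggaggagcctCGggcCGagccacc
The window held 29 CpG in TFRC, 35 in FBXL5 and 25 in STEAP3, against a median of 11 over 35116 promoters of the same length, of which 14.1%, 5.80% and 21.6% held as many or more. ACO1 held 28, SLC40A1 38, FTL 18, and the start sites of SLC11A2, IREB2 and NCOA4 between 2 and 30. The letters ACGTG, the core bound by hypoxia-inducible factors, were searched on both strands and lie in 18.5% of all these windows. TFRC has them once, starting 88 bases before the start site, and FTL once, starting 11 bases before it. In FBXL5 they occur on both strands of the same site, the palindrome CACGTG, starting 120 bases upstream. Methylation was not measured on these arrays, so the letters are a description only. The start of the FTL transcript, at chr19:48965335-48965358 on the plus strand, holds an iron-responsive element, whose loop is in capitals and is shown because iron regulatory proteins bind ferritin transcripts there.
FTL: ctcttgcttcaaCAGTGTttggac
A loop CAGTGN closed by 5 base pairs and preceded by a C was found in the first 50 transcribed bases of 8 entries in all, 0.0228% of them. The other members had none in that stretch, and their transcripts beyond it were not searched.

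The values are log2 signals of a probe set. Each array's background was the level that 95% of its 612 negative-control probe sets did not exceed, which lay between 6.31 and 7.23, and 39.9% to 46.1% of probe sets were above it. The GA experiment had median signals per array of 5.60 to 5.63 and the 5azaC experiment of 5.85 to 5.87. Treated cells were compared with the controls of their own experiment, except in the alternative that took all untreated arrays as controls. The keratins KRT8 and KRT18 and the intermediate filament VIM were above background on all 8 arrays. The lung lineage markers NKX2-1 and SFTPC were below it on all 8, as were PTPRC of leukocytes, HBA1 and HBB of erythroid cells, ALB and HAMP of hepatocytes, COL1A1 of fibroblasts and PECAM1 of endothelium. In bulk RNA, fewer cells that express a gene and less of its RNA per cell cannot be told apart.

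No member passed the test after GA or after 5azaC, while TFRC, FBXL5 and ACO1 had higher signals and STEAP3 lower ones on both treated arrays of each experiment. Differences were tested with limma in 1 fit over all 8 arrays with the treated and untreated pair as a block, which leaves 2 residual degrees of freedom, and p-values were adjusted by Benjamini-Hochberg over all probe sets. At an adjusted p under 0.05, 0 of the 8 members were called after GA, where 0.322% of all probe sets were, and 0 of 8 after 5azaC, where 1.51% were. At an unadjusted p under 0.05, limma gave 2 members after GA, both higher, where 15.8% of all probe sets had such a p, 8.91% higher and 6.94% lower. After 5azaC it gave 4 members, 2 higher and 2 lower, where 20.3% of all probe sets had such a p, 10.7% higher and 9.61% lower. Without the pair block, limma called 0 members after GA, where 1.98% of all probe sets were called, 1.05% higher. It called 2 members after 5azaC, where 4.14% of all probe sets were called, namely TFRC among the 1.86% that were higher and STEAP3 among the 2.29% that were lower. The median log2 difference of the 8 members was 0.07 after GA and 0.16 after 5azaC, against 0.02 and 0.05 over all probe sets.

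**Figure D1:**
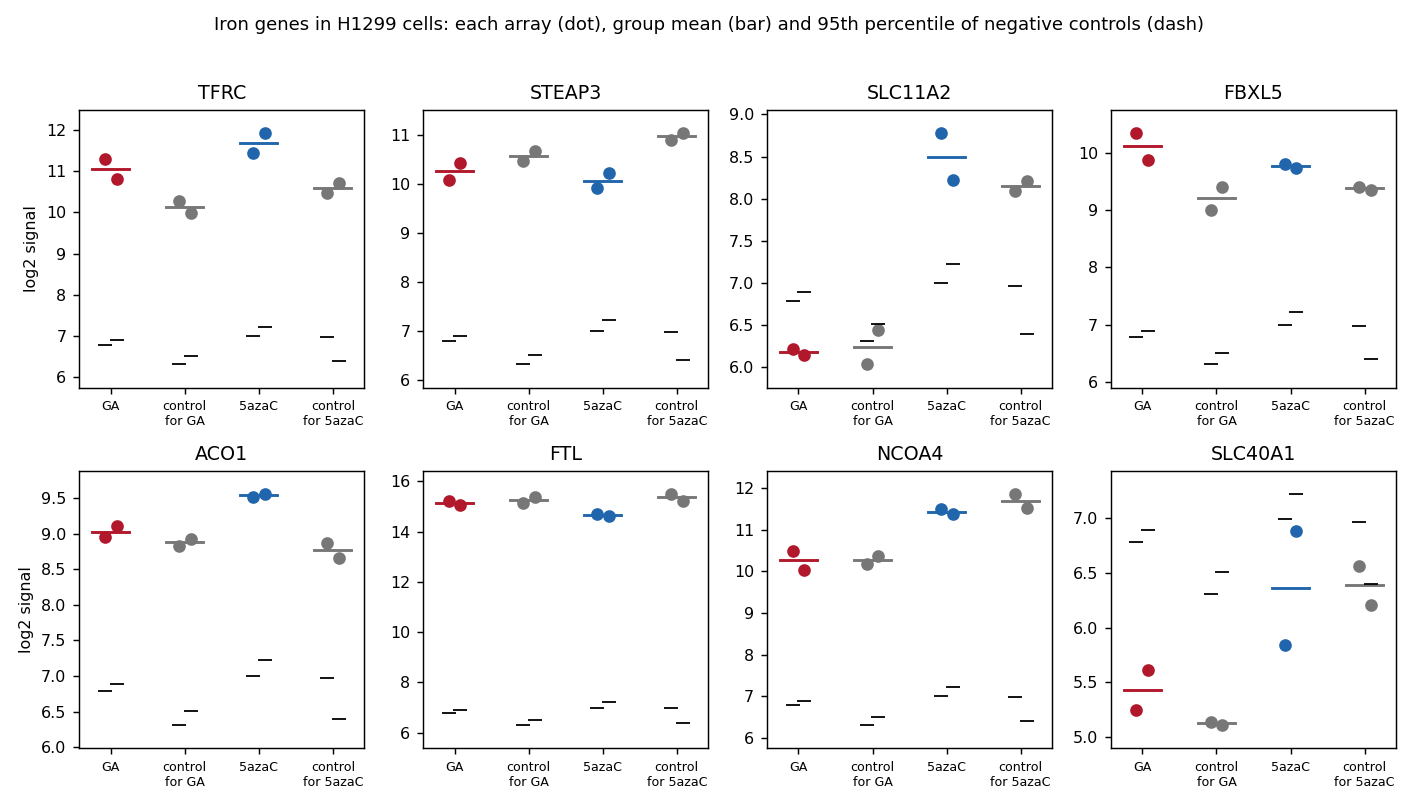
Log2 signal (y axis, a separate range for each gene) of the 8 measured iron genes on each array (dots) of the 4 groups (x axis), with group means (bars, n = 2) and the 95th percentile of negative controls of each array (dashes). TFRC lies above its controls in both experiments, with treated arrays between 10.80 and 11.92, and SLC40A1 lies under the dashes on all arrays.

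Among the uptake genes, TFRC, the receptor that brings transferrin iron into the cell, was the member with the largest difference after either treatment. Its log2 signal was 11.29 and 10.80 after GA, against 10.28 and 9.98 in the controls for GA. The 5azaC arrays read 11.43 and 11.92, against 10.47 and 10.72 in the controls for 5azaC. Both treated arrays lay above both control arrays in each experiment, and the means were 11.04 ± 0.34 after GA, against 10.13 ± 0.21, and 11.68 ± 0.35 after 5azaC, against 10.60 ± 0.18 (SD, n = 2 each). The log2 difference was 0.92 after GA (standard error 0.21, 95% confidence interval 0.43 to 1.40), or 1.89-fold, with an adjusted p of 0.105 from limma. After 5azaC it was 1.08 (standard error 0.21, 95% confidence interval 0.60 to 1.57), or 2.12-fold, with an adjusted p of 0.0541. Without the pair block, limma's adjusted p for TFRC was 0.101 after GA and 0.044 after 5azaC. Of all probe sets, 1.99% had a higher difference than TFRC after GA and 1.17% after 5azaC. A difference between the compounds was not shown, at -0.17 for GA minus 5azaC (95% confidence interval -0.86 to 0.52, adjusted p = 0.930).

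STEAP3, the endosomal reductase that readies iron for transport, had lower signals in treated cells. It read 10.09 and 10.44 after GA, against 10.48 and 10.67 in the controls, and 9.92 and 10.23 after 5azaC, against 10.91 and 11.04 in the controls. The treated arrays lay below the control arrays in each experiment, by a narrow margin after GA. GA gave a log2 difference of -0.31 (95% confidence interval -0.79 to 0.17, limma's adjusted p = 0.524). After 5azaC it was -0.90 (standard error 0.21, 95% confidence interval -1.38 to -0.42), and limma's adjusted p was 0.0766 with pairs as a block and 0.0494 otherwise. Among all probe sets, 3.12% had a lower difference after 5azaC. TFRC and STEAP3, which act on the same endosomal route, had log2 differences of opposite sign after 5azaC.

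SLC11A2, the transporter that carries iron out of the endosome, was below background on all 4 arrays of the GA experiment, at 6.22 and 6.14 after GA, against 6.04 and 6.44 in the controls, so no change is read there. In the 5azaC experiment it was above background, at 8.78 and 8.22 after 5azaC, against 8.09 and 8.21 in the controls. Its log2 difference after 5azaC was 0.35 (95% confidence interval -0.24 to 0.93, adjusted p = 0.49 from limma), and the pairs gave 0.69 and 0.01. The transcript has forms with and without an iron-responsive element, and which of them this probe set measures was not examined.

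FBXL5, the iron sensor of the ubiquitin ligase that removes IREB2, was higher after GA in both pairs, but unevenly. The GA arrays read 10.34 and 9.88 after GA, against 9.00 and 9.40 in the controls, and the pairs differed by 1.33 and 0.47. After 5azaC it was 9.79 and 9.73, against 9.40 and 9.35, and the pairs differed by 0.39 and 0.38. The groups did not overlap in either experiment, and the means were 10.11 ± 0.33 after GA, against 9.20 ± 0.28 in the controls, and 9.76 ± 0.04 after 5azaC, against 9.38 ± 0.04 in the controls (SD, n = 2 each). The log2 difference was 0.90 after GA (standard error 0.26, 95% confidence interval 0.31 to 1.50), or 1.87-fold, with an adjusted p of 0.159 from limma. After 5azaC it was 0.39 (standard error 0.26, 95% confidence interval -0.21 to 0.98), or 1.31-fold, with an adjusted p of 0.445. The effect of GA minus that of 5azaC was 0.52 (95% confidence interval -0.32 to 1.36, adjusted p = 0.813), so a difference between the compounds is not shown.

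FBXL5 is listed in the study's table of genes up-regulated by both compounds, which was made by fold change and unadjusted p. That table names no probe set, and its entry need not rest on the probe set that bears the name here, TC0400012900.hg.1. On this probe set the difference was 1.87-fold after GA and 1.31-fold after 5azaC. At 2-fold or more after both treatments stood 105 probe sets, of which 11 are unnamed here. The unnamed set includes TC0400012901.hg.1, whose identifier directly follows that of FBXL5 and which was singled out after its values were seen. This probe set read 6.91 and 6.68 after GA, against 4.76 and 5.07 in the controls, and 7.17 and 7.44 after 5azaC, against 5.47 and 5.32 in the controls. The controls were below background on all 4 arrays, and 1 of the 2 GA arrays and both 5azaC arrays were above it. Limma's log2 difference was 1.87 after GA (adjusted p = 0.0297) and 1.91 after 5azaC (adjusted p = 0.0203), and both rest on control signals below background. Set against the background of their controls, the 5azaC arrays were higher at least 1.54-fold. No such bound is given for GA, since the second GA array, at 6.68, lay below its own background of 6.89. Such a bound takes the background of the control arrays in place of their lower signals, and it was not tested. The probe table pairs this probe set with no gene, and no name is given to it here.

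ACO1, which serves as the iron regulatory protein IRP1 when it lacks its iron-sulfur cluster and as a cytosolic aconitase when it holds it, had its larger difference after 5azaC. On the log2 scale it read 8.95 and 9.12 after GA, against 8.83 and 8.93 in the controls, and 9.52 and 9.57 after 5azaC, against 8.87 and 8.67 in the controls. The treated arrays lay above the control arrays in both experiments, narrowly after GA. The log2 difference was 0.15 after GA (standard error 0.21, adjusted p = 0.787 from limma) and 0.78 after 5azaC (standard error 0.21, 95% confidence interval 0.30 to 1.26, adjusted p = 0.1004, or 0.0546 when pairs are ignored). Of all probe sets, 4.71% had a higher difference after 5azaC. The effect of GA minus that of 5azaC was -0.63 (95% confidence interval -1.31 to 0.05, adjusted p = 0.755).

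Among the storage genes, FTL, the ferritin light chain, had the highest signals of the members, which overlapped those of the controls after GA and lay below them after 5azaC. Its log2 signal was 15.22 and 15.05 after GA, against 15.12 and 15.35 in the controls, and 14.71 and 14.63 after 5azaC, against 15.51 and 15.20 in the controls. Both 5azaC arrays were thus the lowest of the 8. The log2 difference was -0.10 after GA (95% confidence interval -0.61 to 0.40, adjusted p = 0.872 from limma) and -0.69 after 5azaC (standard error 0.22, 95% confidence interval -1.19 to -0.18, adjusted p = 0.142). Of all probe sets, 6.21% had a lower difference after 5azaC. Ferritin transcripts have many processed pseudogene copies, which may share the signal of this probe set.

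NCOA4, the receptor that carries ferritin to the lysosome, showed no separation after GA. It read 10.49 and 10.03 after GA, against 10.18 and 10.37 in the controls, and 11.48 and 11.38 after 5azaC, against 11.86 and 11.52 in the controls. The groups overlapped after GA, and after 5azaC the treated arrays lay just below the controls. The log2 difference was -0.02 after GA (95% confidence interval -0.57 to 0.54) and -0.26 after 5azaC (95% confidence interval -0.81 to 0.30), with adjusted p-values of 0.982 and 0.598 from limma. SLC40A1, the exporter ferroportin, was below background on all 8 arrays, at 5.25 and 5.61 after GA, against 5.14 and 5.11 in the controls, and at 5.84 and 6.88 after 5azaC, against 6.57 and 6.21 in the controls. No change is read for it.

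**Figure D2:**
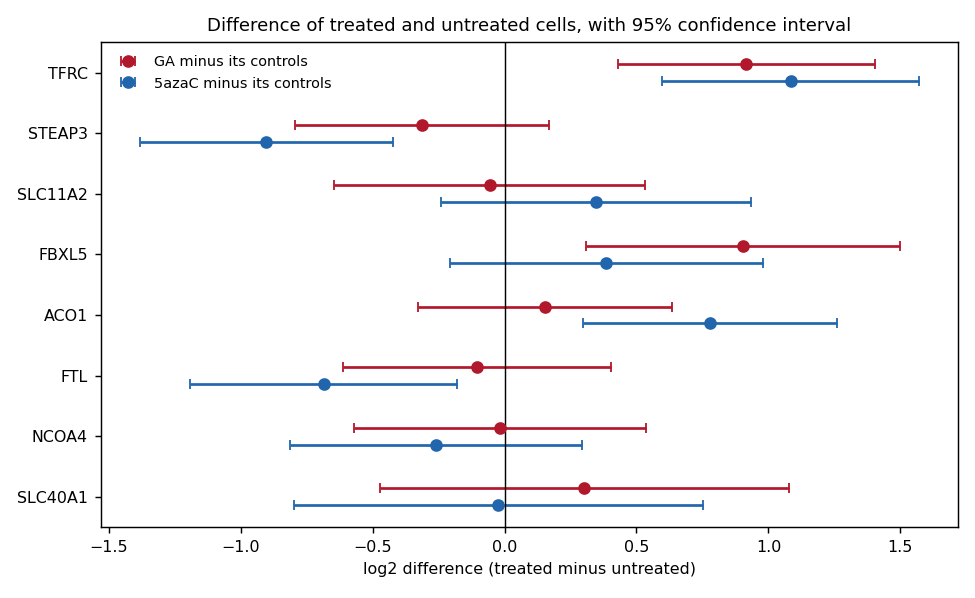
Log2 difference between treated and untreated cells (x axis) of the 8 measured genes (y axis), with 95% confidence intervals from limma's fit with the pair block, for GA (red) and 5azaC (blue). The intervals of TFRC lie above 0 for both compounds, at 0.43 to 1.40 for GA and 0.60 to 1.57 for 5azaC, and none of the differences passed after adjustment over all probe sets. SLC40A1, and SLC11A2 after GA, rest on signals below background.

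Counted by separation, 4 of the 8 members lay above their controls on both GA arrays, SLC40A1 among them, and 1 lay below, where 25.3% and 21.4% of all probe sets did. After 5azaC 4 lay above and 3 below, where 28.1% and 22.2% of all probe sets did. Above the controls after both treatments were 3 members, TFRC, FBXL5 and ACO1, where 12.4% of all probe sets were, and below after both was 1, STEAP3, where 10.1% were. With 2 arrays a group such separation is frequent over the whole array, and it does not set these genes apart. The difference between the treatments passed for 0 of the 8 members, as for 0 of all probe sets (0%), and at an unadjusted p under 0.05 for 0 members by limma, where 6.67% of all probe sets had such a p.

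The untreated cells of the experiments differed more in some members than treated cells differed from their controls. These arrays were compared by limma in a fit of the 4 groups, in which 19.3% of all probe sets had an adjusted p under 0.05 and the median difference, controls for GA minus controls for 5azaC, was -0.18. Of the 8 members 3 passed, all lower in the controls for GA, where 15.2% of all probe sets passed in that direction and 4.07% in the other. The arrays of the controls for GA lay below those of the controls for 5azaC without overlap for 5 members and above them for 0, where 43.4% and 20.8% of all probe sets did. SLC11A2 was at 6.04 and 6.44 in the controls for GA, where it was below background, against 8.09 and 8.21 in the controls for 5azaC. Limma's log2 difference for SLC11A2 was -1.91 (adjusted p = 0.00254). Under the alternatives this difference ran from -1.91 to -1.59. Set against background, SLC11A2 was at least 3.35-fold lower in the controls for GA on the deposited scaling. That bound was not tested and was not computed under other scalings. NCOA4 was at 10.18 and 10.37, against 11.86 and 11.52, a log2 difference of -1.41 (standard error 0.23, limma's adjusted p = 0.00498). Under the alternatives it ran from -1.41 to -1.03. SLC40A1, the third, was below background in both and did not pass under quantile normalization (adjusted p = 0.068) or median centring (adjusted p = 0.053). Of the rest, TFRC had a log2 difference of -0.47 (adjusted p = 0.217), STEAP3 of -0.40 (adjusted p = 0.224), FBXL5 of -0.17 (adjusted p = 0.636), FTL of -0.12 (adjusted p = 0.722) and ACO1 of 0.11 (adjusted p = 0.716). The sign of FBXL5 and FTL turned with the scaling, to 0.22 and 0.14 under quantile normalization and to 0.067 and 0.12 under median centring. The experiment and any difference of the array run cannot be told apart here. SLC11A2 is readable in the 5azaC experiment only, since it was below background throughout the GA experiment.

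**Figure D3:**
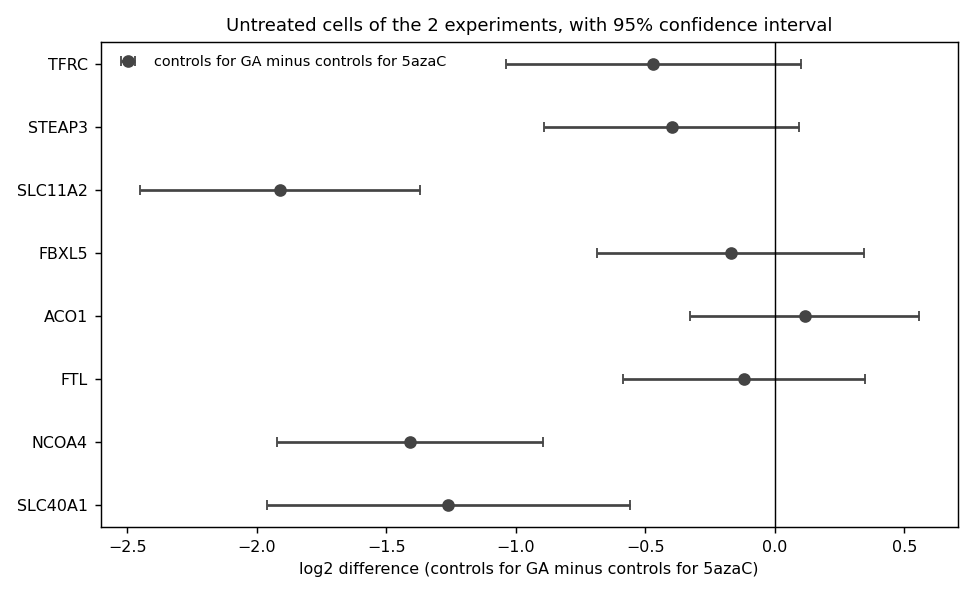
Log2 difference between the untreated arrays, controls for GA minus controls for 5azaC (x axis), of the 8 measured genes (y axis), with 95% confidence intervals from limma's fit of the 4 groups. SLC11A2, NCOA4 and SLC40A1 lie below 0, SLC40A1 on signals below background, and the other intervals include 0.

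Around the members, 76 of 85 further genes of iron handling and iron-dependent sensing had a named probe set, and 25 of the 76 were below background in both groups of the GA experiment, and 25 in both of the 5azaC experiment. After GA 0 rose and 1 fell, and after 5azaC 0 rose and 1 fell, where 0.0793% and 0.242% of all probe sets rose and fell after GA and 0.518% and 0.988% after 5azaC. The gene that fell was VEGFA, the vascular growth factor that hypoxia-inducible factors switch on when oxygen or iron runs short. Its log2 signal was 8.99 and 9.14 after GA, against 10.78 and 11.00 in the controls, and 9.26 and 9.32 after 5azaC, against 11.38 and 11.16 in the controls. With GA it fell by 1.82 in log2 units (limma's adjusted p = 0.023) and with 5azaC it fell by 1.98 (adjusted p = 0.0141). Other genes of that pathway did not pass, such as BNIP3, a mitophagy receptor, at 0.60 and 0.58. The median of its 11 measured genes was 0.06 after GA and 0.11 after 5azaC. Their directions were mixed. Counting genes below background too, 3 lay above their controls without overlap and 3 below after GA, where 25.3% and 21.4% of all probe sets did. After 5azaC 4 lay above and 4 below, where 28.1% and 22.2% did. VEGFA was among those below in each. TFRC, which hypoxia-inducible factors also regulate, did not pass, and its differences were opposite in sign to those of VEGFA after each compound. The activity of these factors was not tested.

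The metal importers of the ZIP family, which take up iron not bound to transferrin, had differences of opposite sign. SLC39A8 was at 9.61 and 10.01 after GA, against 8.45 and 8.48 in the controls, and its log2 difference was 1.34 after GA (limma's adjusted p = 0.0652) and 0.84 after 5azaC (adjusted p = 0.0933). SLC39A14 was at 10.61 and 9.87 after GA, against 11.26 and 11.45 in the controls, where the pairs differed by -0.64 and -1.58. It was at 11.00 and 10.61 after 5azaC, against 12.49 and 11.98 in the controls. Its log2 difference was -1.11 after GA (adjusted p = 0.115) and -1.43 after 5azaC (adjusted p = 0.0504). When pairs were ignored, SLC39A8 passed after GA (limma's adjusted p = 0.0162), among the 1.05% of all probe sets called higher there. SLC39A14 then passed after 5azaC (adjusted p = 0.0256), among the 2.29% called lower. Of the ubiquitin ligase in which FBXL5 works, the RING subunit RBX1 had log2 differences of 1.06 after GA (adjusted p = 0.103) and 0.39 after 5azaC, and the scaffold CUL1 of 0.12 and 0.42. BLVRA, which reduces biliverdin after heme breakdown, had 1.10 after GA (adjusted p = 0.105, or 0.0481 when pairs are ignored) and 0.47 after 5azaC, and the heme oxygenase HMOX2 had -0.30 and -0.59. The inducible heme oxygenase HMOX1 was below background in all groups, so no change is read for it. Its limma adjusted p after GA was 0.0761, or 0.041 when pairs are ignored.

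In iron-sulfur cluster assembly 0 of 8 cytosolic and 0 of 11 mitochondrial genes passed after either compound. Of all probe sets, 0.322% passed after GA and 1.51% after 5azaC, so lists this short would seldom hold a call. The medians were -0.13 and 0.03 after GA and -0.33 and -0.09 after 5azaC. ISCU, the scaffold of mitochondrial assembly, had log2 differences of -0.50 with GA (limma's adjusted p = 0.301) and -0.66 after 5azaC (adjusted p = 0.14). After GA and after 5azaC, the medians were -0.10 and -0.16 for 7 genes of heme synthesis and -0.05 and 0.02 for 7 of transferrin uptake and ferric reduction. They were -0.02 and 0.21 for 4 cytosolic iron chaperones and ferritin-like genes, and 0.50 and 0.39 for 3 ligase partners of FBXL5. For 7 genes of heme breakdown and export, 3 of them below background, they were 0.60 and 0.31. For 8 other importers and carriers they were 0.15 and 0.04. For 6 genes of export and systemic regulation, 5 of them below background, they were 0.03 and 0.37. The ferric reductase CYBRD1 had log2 differences of 0.53 after GA and 0.11 after 5azaC, and STEAP2 of -0.22 and -0.31. The iron chaperone PCBP1 had 0.49 and 0.27, and the glutaredoxin GLRX3 0.22 and 0.50. NDOR1 and CIAO3 of cytosolic assembly had -0.35 and -0.20 after GA and -0.54 and -0.45 after 5azaC, and the mitochondrial glutaredoxin GLRX5 had 0.44 and 0.12. In heme synthesis UROS had -0.34 and -0.47 and UROD 0.60 and -0.25, and BMP6, a ligand that raises hepcidin in liver, had 0.42 and 0.14. Among 4 other transcripts known to carry an iron-responsive element, the phosphatase CDC14A had 0.48 and 0.59 and the kinase CDC42BPA -0.31 and -0.43. Of these 4, 0 passed, where the same small shares of all probe sets did.

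**Figure D4:**
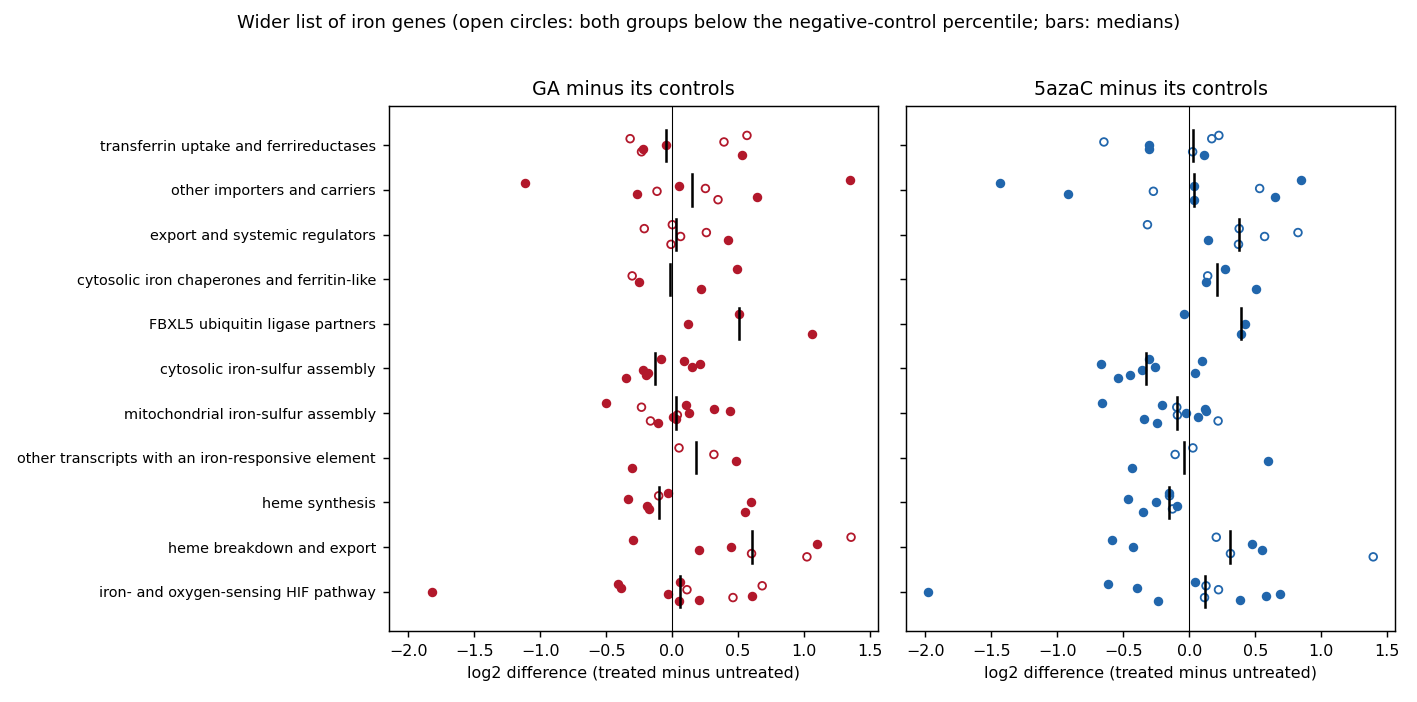
Log2 difference between treated and untreated cells (x axis) of 76 further iron genes by functional group (y axis), for GA (left) and 5azaC (right), with group medians (bars) and open circles where both groups were below background. VEGFA is lowest in both panels at -1.82 and -1.98, and the group medians run from -0.13 to 0.60 after GA and from -0.33 to 0.39 after 5azaC.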

How the data were processed

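The values are log2 signals that the authors obtained with Expression Console 1.4 (Signal Space Transformation, then RMA) and deposited for each Clariom S array. No source used here states a genome build. The table has 24351 entries. Leaving aside 2903 controls, 21448 probe sets entered each test as they stood. A platform table of 17709 probe sets gave the symbols, and 3739 probe sets are unnamed here.  Sample labels gave the groups and replicate numbers.

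Tests used limma 3.58.1 in R 4.3.3 (lmFit and eBayes) with the pair as a block, since the methods name a paired test and the controls were of the same passage. Deviations of same-numbered replicates correlated at -0.023 for GA and 0.0289 for 5azaC. The fit was tested on simulated data. The number of arrays limits the precision. The members and lists were chosen with earlier results of these data known. Named are all members and, of the wider list, the genes called and, in each functional group, the 2 above background with the largest mean difference over both treatments. Alternatives changed the block, the arrays in the fit (those of 1 treatment, 1 pair fewer, or every untreated array as control), the test (the methods' paired t-test or an unpaired one), the scaling (quantile or median), the moderation (trend and robust eBayes) and the filter, with the dimmest 33% dropped.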

Additional observations from a re-analysis of the deposited data

Results flagged for a closer look

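Among the named genes, UROD, an enzyme of heme synthesis, differed in direction between the treatments, without passing the test of that difference. Its log2 signal was 11.63 and 11.45 after GA, against 10.48 and 11.39 in the controls for GA, and 12.29 and 12.53 after 5azaC, against 12.63 and 12.69 in the controls for 5azaC. All GA arrays lay above their controls and all 5azaC arrays below theirs, with a difference of 0.86 on the log2 scale for GA minus 5azaC (adjusted p = 0.758 from limma). Most of it rests on the first control array for GA, since the GA pairs differed by 1.15 and 0.05. Untreated UROD was also lower in the controls for GA than in those for 5azaC, by limma's log2 difference of -1.72 (adjusted p = 0.00491). Genes not named were not screened. Of these, BLVRB of heme breakdown had the same pattern, at 0.45 after GA and -0.43 after 5azaC (GA minus 5azaC 0.87, limma's adjusted p = 0.743). The share of all probe sets with this pattern was not counted.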

How the results depend on the processing

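Counts of calls depended on how the spread was estimated. After GA 69 probe sets, 0 members and 1 gene of the wider list were called, and after 5azaC 323, 0 and 1. Without the pair block the counts were 425, 0 and 4 after GA and 889, 2 and 2 after 5azaC. Fitting only the 4 arrays of a treatment, they were 620, 0 and 6 after GA and 22, 0 and 0 after 5azaC. The methods' paired t-test, after Benjamini-Hochberg, called 9 and 3 probe sets and 0 genes of either list, and an unpaired t-test called 0 of any. Leaving out the dimmest 33% of probe sets gave 388, 0 and 3 after GA and 914, 2 and 3 after 5azaC. With trend and robust settings of eBayes the counts were 1210, 2 and 6 after GA, where FBXL5 (adjusted p = 0.0358) and TFRC (adjusted p = 0.0088) were the members called, and 1838, 4 and 8 after 5azaC, where the members were TFRC, ACO1, STEAP3 and FTL. With all untreated arrays as controls they were 151, 0 and 1 after GA and 780, 1 and 3 after 5azaC. Quantile normalization gave 74 and 245 probe sets and median centring 66 and 305. Leaving out 1 pair gave 0 to 620 probe sets and 0 to 6 wider genes after GA, and 22 to 257 probe sets and 0 to 1 wider gene after 5azaC, with 0 members each time. Leaving out GA replicate 1 or replicate 2 leaves 1 GA array against 1 control array, assumed to vary like the 5azaC pairs, and 0 probe sets were then called after GA. VEGFA was not called after either treatment in those fits, while its values after GA were -1.85 without replicate 1 and -1.79 without replicate 2 and that after 5azaC stayed at -1.98.

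Of 208 values of members after treatment under the alternatives, 190 kept their direction and side of the threshold, 11 passed it in addition and 7 changed sign. These counts are no measure of robustness. No member passed in the main fit, so none could cease to pass. Changes of the block, test, moderation or filter leave a log2 difference as it was. So does leaving out arrays of the other treatment. In those alternatives the direction could not change. Untreated FBXL5 turned to 0.22 under quantile normalization and 0.067 under median centring, and untreated FTL to 0.14 and 0.12. Without GA replicate 1 and without replicate 2, the values after GA were -0.30 and 0.19 for SLC11A2, -0.30 and 0.10 for FTL, -0.34 and 0.31 for NCOA4, -0.54 and 0.10 for STEAP2, 0.55 and -0.10 for GLRX3, and 0.065 and -0.77 for NDOR1, and NCOA4 for GA minus 5azaC was -0.086 and 0.57. Without 5azaC replicate 1 and without replicate 2, the values after 5azaC were 0.68 and -0.72 for SLC40A1, -0.12 and 0.67 for PCBP1, 0.50 and -0.28 for CYBRD1, 0.43 and -0.15 for BMP6, and -0.98 and 0.077 for CIAO3, and SLC40A1 for GA minus 5azaC was -0.37 and 1.03. With all untreated arrays as controls, the values after GA were -0.33 for SLC40A1, -0.29 for GLRX5, -0.26 for UROD and -0.15 for BNIP3, and after 5azaC 0.45 for NCOA4, 0.61 for SLC40A1 and 0.61 for UROD. The cause was not tested. Other probe sets of a member could not be tried, since each has 1. Signals below background limit SLC40A1 in all groups and SLC11A2 in the GA experiment.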
